A study of Mus musculus with 2 samples.

Results

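The respiratory chain and the ATP synthase are the machinery of oxidative phosphorylation in the inner membrane of mitochondria. Their subunit genes were chosen by gene symbol: the nuclear genes of complex I (symbols starting with Ndufa, Ndufb, Ndufc, Ndufs or Ndufv and a digit), complex II (Sdha to Sdhd), complex III (Uqcr genes and Cyc1), complex IV (Cox4 to Cox8 genes) and complex V (Atp5 genes). The rule found 119 probes for 79 of the 19057 genes with a named probe. All 79 genes were found in the reference gene table by their gene ID.

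The study compared wild-type mouse lens epithelium with lens fibers at embryonic stage E12.5, with 1 Illumina array of total RNA for each. The epithelium covers the front of the lens and divides, and the fibers behind it elongate, fill with crystallins and later lose their organelles, mitochondria included. The sources used here do not give the strain, the pooling of embryos or the way the tissues were taken apart. With 1 array per tissue there were no replicates, no test was possible, and every ratio describes this pair of arrays. In such bulk RNA, fewer cells of a type and less RNA per cell cannot be told apart.

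Complex I takes electrons from NADH and complex II from succinate, complex III passes them to cytochrome c, and complex IV passes them to oxygen. Complexes I, III and IV pump protons across the inner membrane, and complex V, the ATP synthase, lets them flow back to make ATP. Most subunits are encoded in the nucleus and some in mitochondrial DNA, and the latter are not analysed here. The lens is known for strong use of glycolysis beside its mitochondria.

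A value below is the normalized intensity of the brightest probe of a gene, and it is comparable between the arrays but not between genes, because probes differ in brightness. The floor is the signal that 95% of 1580 probes for genes silent in lens stay under, 44.6 for epithelium and 32.1 for fibers. Genes that exceed both floors have a log2 ratio, with fibers over epithelium. Those that exceed 1 floor have a bound, the value over the other array's floor, written "at least". Where the floors differ so much that the bound falls under 1, no direction is given.

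The tissue labels fitted the fixed markers. All 8 measured lens fiber markers reached 2-fold toward fibers, and the 5 measured lens epithelium markers, of 6 on the array, were higher in epithelium by as much, while Foxe3 was below the floor on both arrays. Mip, the water channel of fibers, read 3206.5 in epithelium and 19878 in fibers. Of markers of other cell types, 2 of 6 erythroid genes, 1 of 5 periocular mesenchyme genes, 1 of 4 endothelial genes, 1 of 4 pigment cell genes, 1 of 5 striated muscle genes and 0 of 3 retina genes on the array were above the floor. Their summed signal in epithelium and fibers was 164 and 230 for erythroid cells, 255 and 60.7 for mesenchyme, 35.7 and 112 for endothelium, 139 and 23.3 for pigment cells, 95.7 and 75.3 for striated muscle and 1.79 and 3.10 for retina. The erythroid markers Hba-x and Alas2 read below 0 on both arrays, as did the muscle markers Acta1, Actc1 and Ckm. Other members of the same lists did exceed a floor. Hbb-y read 121 in epithelium and 124 in fibers, and Ttn, of muscle, read 69.8 and 55.3, all above the floor. Hba-a1 read 14.8 in epithelium, below the floor, and 76.7 in fibers, above it. Of the mesenchyme genes only Tfap2b exceeded a floor, at 209 in epithelium and 36.2 in fibers, most of the summed signal. Of the endothelial genes only Tek did, at 83.4 in fibers, against 6.92 in epithelium. Of the pigment cell genes only Pmel did, at 55.8 in epithelium, against 11.1 in fibers. The part of these cells in the results below was not tested.

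Most subunit genes read higher in fibers than in epithelium, except with housekeeping scaling. With that scaling 19 of 43 were positive (44.2%), against 17.2% of all genes above the floor on both arrays. Of the 79 genes, 43 exceeded both floors, 18 exceeded that of fibers alone, 1 that of epithelium alone, and 17 neither. Of the 43, 37 had a positive log2 ratio, against 42.5% of the 2986 genes above the floor on both arrays. Their median log2 ratio was 0.67 (1.59-fold), with quartiles at 0.23 and 1.34, against a median of -0.19 over all genes. Of the 62 genes above the floor on at least 1 array, 20 reached 2-fold toward fibers (32.3%, against a background of 15.5%). Toward epithelium there were 2 (3.23%, background 18.5%). Of 18 measured housekeeping genes, 9 reached 2-fold toward fibers (50%) and 0 toward epithelium. Of the 20 subunit genes, 14 were measured on both arrays and 6 were bounds. Genes measured in fibers alone made up 29.0% of the 62, against 35.8% of all measured genes, and genes measured in epithelium alone 1.61%, against 17.9%.

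Housekeeping genes also read higher in fibers, unless they set the scale. Of 23 listed, 19 had a named probe, 18 exceeded at least 1 floor and 11 both, and 9 of these 11 had positive log2 ratios, with a median of 0.84 (1.79-fold). The furthest were Rab7, of endosome traffic, at 9.03-fold, the proteasome genes Psmb2, at least 8.51-fold, and Psmb4, 4.84-fold, and Chmp2a, of membrane scission, at least 3.99-fold. Actb, cytoskeletal actin, read 4161.5 in epithelium and 7462 in fibers (1.79-fold). Gapdh, a glycolytic enzyme, read 268 and 546 (2.04-fold). Tbp, the TATA-binding protein, and Vcp, an ATPase of protein turnover, went the other way, with log2 ratios of -0.59 and -0.71. The subunit median was 0.87 above that of all genes and 0.17 below that of the housekeeping genes. When the fibers array was scaled to the housekeeping genes, the subunit median turned to -0.17 and the median of all genes moved by -0.85 to -1.04. Of 62 measured subunit genes, 7 were then at 2-fold or more toward fibers (11.3%) and 5 toward epithelium. Of all genes, 4.53% then reached 2-fold toward fibers and 42.8% toward epithelium. The direction of the subunit genes as a group therefore depends on the reference. Their place between all genes and the housekeeping genes was the same in each of the 11 ways of processing shown in the plot of medians. Scaling an array by 1 factor moves these medians almost alike, so it could hardly have changed their order.

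**Figure D1:**
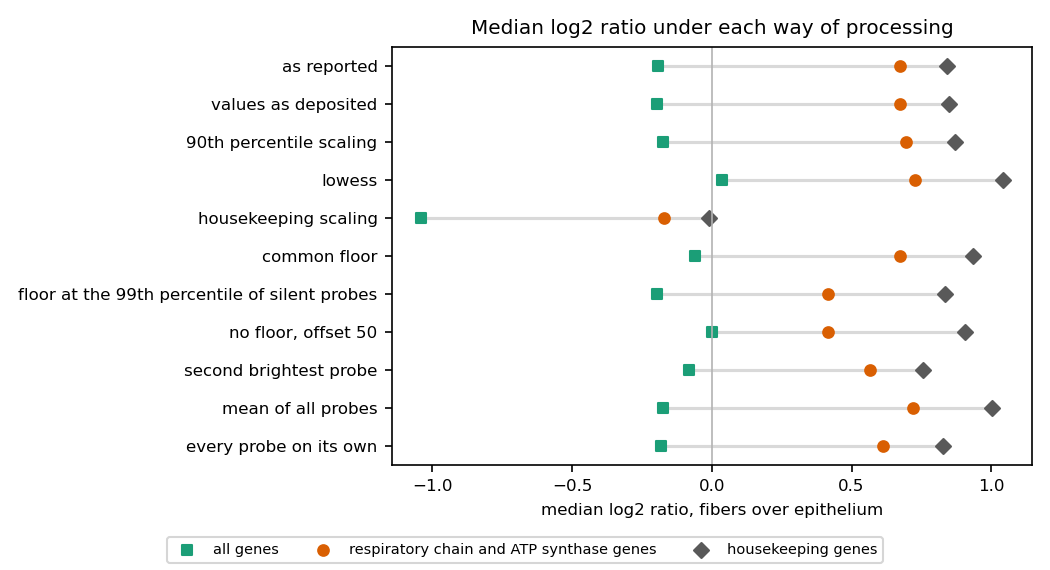
Median log2 ratio of fibers over epithelium (x axis) for all genes (squares), the respiratory chain and ATP synthase genes (circles) and housekeeping genes (diamonds), under each way of processing (rows), with no error bars since there are no replicates. The circle lies between the square and the diamond in every row, at 0.67 as reported and at -0.17 with housekeeping scaling.

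The subunit genes lay above all genes at every level of signal. Among genes with a mean intensity under 100, 7 of 8 subunit genes had positive ratios and their median was 0.39, against -0.28 for all 1160 genes of that brightness. From 100 to 200 the medians were 0.58 (15 subunit genes) and -0.11, from 200 to 400 they were 1.16 (14 genes) and 0.04, and above 400 they were 0.89 (6 genes, all positive) and -0.12. With no floor and an offset of 50 added to each intensity, all 79 subunit genes could be used. Of these, 62 then had positive log2 ratios and the median was 0.42, against 0.00 for all genes.

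**Figure D2:**
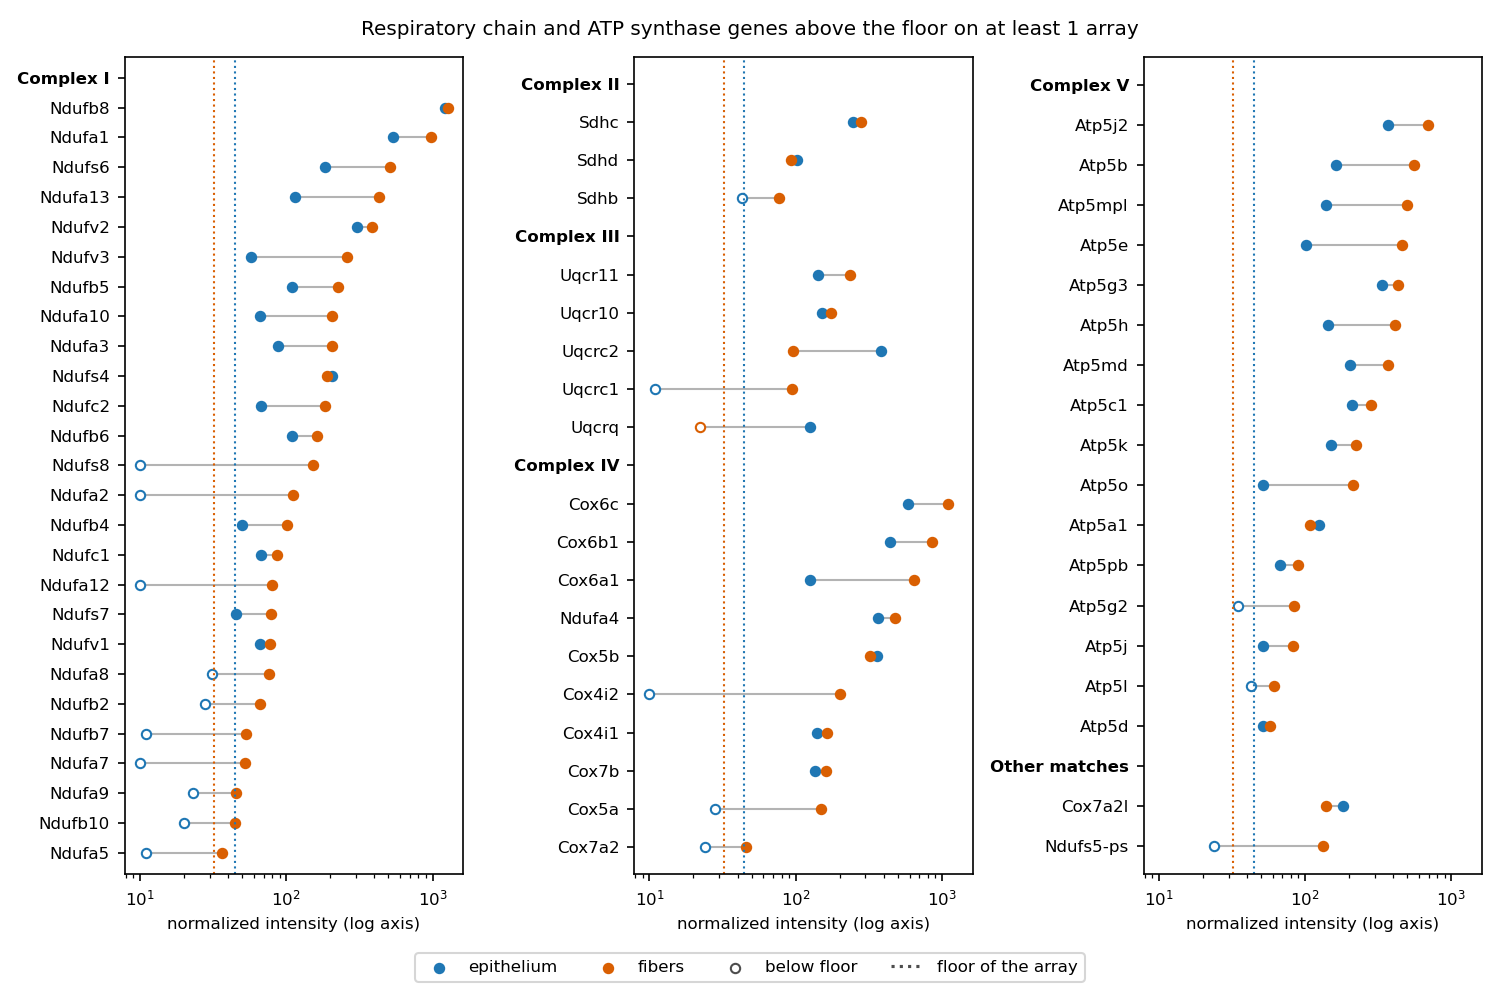
Normalized intensity (x axis, log scale) of the 62 genes above the floor on at least 1 array, in epithelium (blue) and fibers (orange), by complex; open circles are below the floor of their array (dotted lines) and values under 10 are drawn at 10. The orange point lies to the right for most genes, while Uqcrc2 and Uqcrq of complex III run the other way.

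The only measure of error in these data is how far probes of the same gene differ. Over 690 pairs of probes of the same gene, both above the floor on both arrays, the log2 ratios differed by a median of 0.50, and 28.6% of the pairs differed by 1 or more (2-fold). The SD between probes was 0.74 on the log2 scale. The 32 silent probes that exceeded both floors had log2 ratios from -2.30 to 2.37. A 2-fold difference seen with a single probe is therefore within the range that probes of the same gene, and probes for silent genes, show. Of the 79 subunit genes, 49 had a single probe.

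Complex I had a higher median than the other complexes as reported, but not in each way of processing. With bounds added, and genes without a direction counted as 0, the medians of complexes I and V lay close, at 0.78 and 0.76. With the floor at the 99th percentile of silent probes complex V had the higher median (0.85 against 0.61). With the second brightest probes complex IV did (2.40, from Cox6a1 alone, against 0.63). Of the 33 genes of complex I on the array, 16 were above the floor on both arrays, 15 of them with a positive log2 ratio (median 0.95). With housekeeping scaling this median was 0.11. Of 26 measured genes, 10 reached 2-fold toward fibers (38.5%), against 15.5% of all genes and 50% of the housekeeping genes. Toward epithelium there were 0, against 18.5% of all genes and 0 of the housekeeping genes. The core subunits, which carry the flavin and iron-sulfur clusters or bind quinone, exceeded both floors in 3 cases. Ndufv2 read 306 in epithelium and 386.5 in fibers (log2 ratio 0.34), and Ndufv1, which binds NADH, read 65.9 and 77.8 (0.24). Ndufs7 read 45.6, just above the floor, and 78.7 (0.79). Ndufs8, with 2 iron-sulfur clusters, read 153 in fibers and was below the floor in epithelium, at least 3.42-fold higher in fibers. Ndufs1 and Ndufs3 were below the floor on both arrays.

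The accessory subunits surround this core. In the peripheral arm, which reaches into the matrix, Ndufv3 read 57.7 in epithelium and 260.2 in fibers (4.51-fold). Ndufs6, a zinc-binding subunit, read 183 and 510.5 (2.78-fold). Ndufa2 read 111 in fibers, a log2 bound of 1.32. Ndufs4, a subunit needed for a stable complex, read 204.5 and 189 (log2 ratio -0.12), the only negative ratio of complex I. This was its brightest probe. Its other probes leaned toward fibers, with a log2 ratio of 0.60 and bounds of 0.44 and 2.21. Ndufa12, Ndufa7 and Ndufa9 were on the fibers array only, with bounds from 1.02-fold for Ndufa9 to 1.78-fold for Ndufa12. Ndufa5 had no direction and Ndufa6 was below the floor.

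In the membrane arm all 10 accessory genes above the floor on both arrays had positive ratios, with a median of 1.04 (0.83 with bounds added). Of the 14 measured, 6 reached 2-fold toward fibers (42.9%), against 15.5% of all genes and 50% of the housekeeping genes. Ndufa13, also known as GRIM-19, read 114 in epithelium and 428.5 in fibers (3.76-fold). Ndufa10 read 65.9 and 204 (3.10-fold), Ndufc2 read 67.0 and 183 (2.73-fold), and Ndufa3 read 87.3 and 204 (2.34-fold). Ndufb5 read 109 and 227 (2.09-fold), and Ndufb4 read 49.8 and 101 (2.03-fold). Ndufb4 and Ndufb5 only just reached 2-fold. Ndufa1, a small subunit of the membrane arm, read 535.5 and 980.5 (1.83-fold), and Ndufb8, whose probe gave the brightest signal of the complex, read 1223 and 1271 (1.04-fold). Ndufb6 (1.49-fold) and Ndufc1 (1.29-fold) completed the genes with both values. Measured in fibers alone were Ndufa8 (at least 1.72-fold), Ndufb2 (a log2 bound of 0.56), Ndufb7 (at least 1.20-fold) and Ndufb10, which had no direction. Ndufa11, Ndufb3, Ndufb9 and Ndufb11 were below the floor. Ndufs5-ps, a transcribed pseudogene that the symbol rule also takes in and no complex counts, read 132 in fibers, at least 2.95-fold higher. Whether its probe also takes up the parent transcript was not tested.

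Complex II, the succinate dehydrogenase that also serves the citric acid cycle, showed no 2-fold difference. Sdhc, a membrane anchor, read 245 in epithelium and 279 in fibers (log2 ratio 0.19), and Sdhd, the other anchor, read 103 and 93.0 (-0.14). Sdhb, the iron-sulfur subunit, read 42.7, under the floor, and 76.7, at least 1.72-fold higher in fibers. Sdha, the flavoprotein, was below the floor on both arrays.

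Complex III was split. The core proteins Uqcrc1 and Uqcrc2 lay on opposite sides: Uqcrc2 read 380.1 in epithelium and 96.0 in fibers (3.96-fold higher in epithelium), while Uqcrc1 read 94.9 in fibers and was below the floor in epithelium, at least 2.13-fold higher in fibers. The small subunit Uqcrq read 126 in epithelium and 22.0, below the floor, in fibers, at least 3.92-fold higher in epithelium, from 1 of its 2 probes. The other probe of Uqcrq was below the floor on both arrays. Uqcr10 read 151 and 174 (log2 ratio 0.20), and Uqcr11 read 142 and 235 (0.73). Cyc1, cytochrome c1, Uqcrfs1, the Rieske iron-sulfur protein, and the hinge protein gene Uqcrh were below the floor. Uqcrc2 and Uqcrq were the only subunit genes at 2-fold or more toward epithelium as reported, each measured by a single probe above the floor. Both stayed at 2-fold under each scaling and with a common floor, but most of these settings could hardly have removed them. Housekeeping scaling lowers every log2 ratio, and the values as deposited and 90th percentile scaling hardly moved either gene. The common floor could not act on Uqcrc2, which exceeded both floors. With lowess the log2 bound of Uqcrq was -1.52, and Uqcrc2 hardly moved. With the floor at the 99th percentile of silent probes Uqcrq did not reach 2-fold, with a log2 bound of -0.64.

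Complex IV, cytochrome c oxidase, held the member with the largest ratio measured on both arrays. Cox6a1, the isoform of subunit 6a used outside heart and skeletal muscle, read 126 in epithelium and 642 in fibers (5.09-fold). its second probe gave 2.40 on the log2 scale beside 2.35. Cox5a read 27.9, below the floor, in epithelium and 149.9 in fibers, at least 3.36-fold higher. Cox6b1, on the intermembrane side, read 438.5 and 860 (1.96-fold), and Cox6c read 583 and 1092 (1.87-fold). The remaining genes on both arrays differed less: Ndufa4, now counted with complex IV, read 363.5 and 477 (log2 ratio 0.39), Cox7b 136 and 162 (0.25), Cox4i1 140 and 165 (0.23) and Cox5b, a zinc-binding subunit, 360 and 322.5 (-0.16). Cox7a2 was on the fibers array only, with a bound of 1.02-fold. Over the 7 genes on both arrays the median was 0.39, which was -0.45 with housekeeping scaling.

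Several subunits of complex IV have isoforms for certain tissues. Cox4i2, the subunit 4 isoform known from lung and from its induction by low oxygen, read 201 in fibers and 7.93, below the floor, in epithelium, at least 4.51-fold higher in fibers, from a single probe. The heart and muscle isoforms Cox6a2, Cox7a1 and Cox8b, and Cox6b2, Cox7b2 and Cox8c, known from testis, were below the floor on both arrays. Cox7a2l, which joins complexes III and IV into supercomplexes and is no subunit of either alone, read 182 and 139 (log2 ratio -0.39).

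All 16 genes of complex V exceeded the fibers floor and 14 both floors, 13 of these with a positive ratio. The median was 0.76, and -0.081 with housekeeping scaling. In F1, the catalytic head, Atp5b, the beta subunit that carries the catalytic sites, read 163 in epithelium and 556 in fibers (3.41-fold), whereas Atp5a1, the alpha subunit that alternates with it, read 124 and 108 (log2 ratio -0.20), the only negative ratio of the complex. Atp5e, the epsilon subunit of the central stalk, read 102 and 459 (4.51-fold), while its neighbours Atp5c1 (gamma, 211 and 281) and Atp5d (delta, 51.8 and 57.2) had log2 ratios of 0.42 and 0.15. In the peripheral stalk, which holds the head still, Atp5o read 51.8 and 214 (4.13-fold) and Atp5h read 143 and 413 (2.90-fold), while Atp5j and Atp5pb had log2 ratios of 0.67 and 0.41.

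In the membrane part Atp5mpl, a small proteolipid, read 138 and 499.5 (3.61-fold). Atp5j2 read 367 and 697 (1.90-fold), Atp5md 204 and 367 (1.80-fold) and Atp5k 150.2 and 224 (1.49-fold). Of the genes for the rotating c ring, Atp5g3 read 335 and 435 (log2 ratio 0.37), and Atp5g2 read 34.8, below the floor, and 83.4, at least 1.87-fold higher in fibers. Atp5l, on the fibers array only, was at least 1.38-fold higher. None of the membrane part had a negative ratio as reported.

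**Figure D3:**
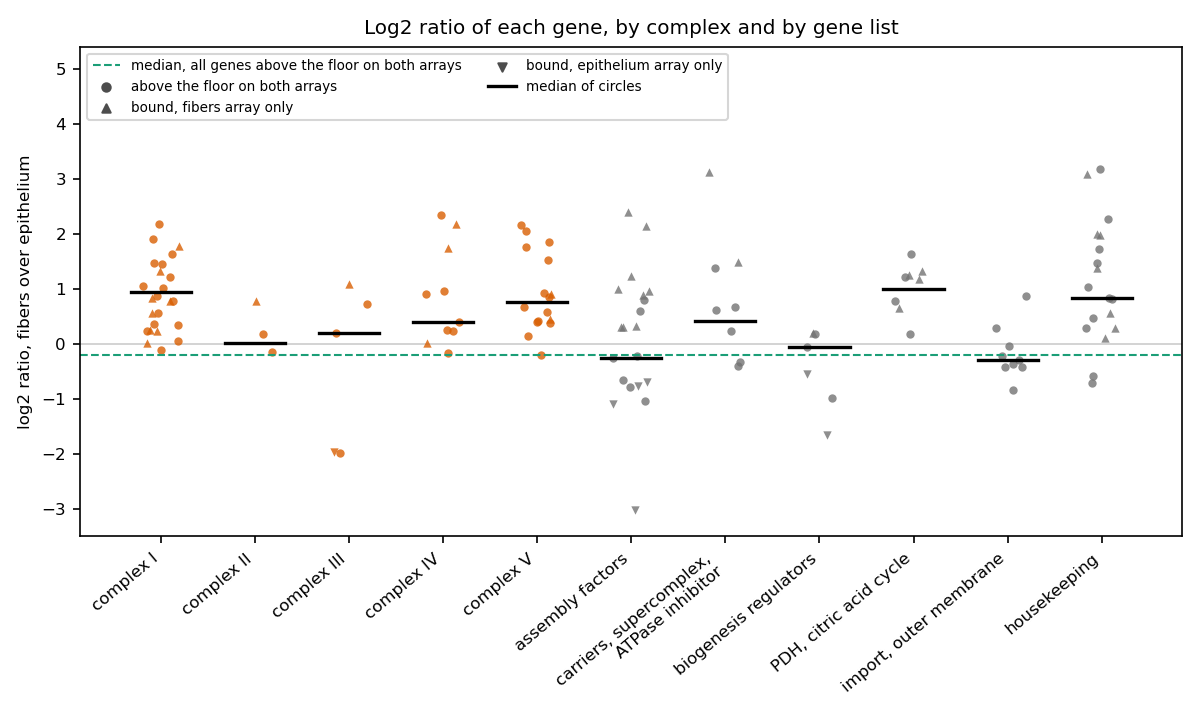
Log2 ratio of fibers over epithelium (y axis) for each gene with a direction, by complex (orange) and by gene list (grey); triangles are bounds from genes above the floor on 1 array, black lines are medians of the circles, and the dashed line is the median of all genes, -0.19. The medians of complexes I (0.95) and V (0.76) sit beside that of the housekeeping list (0.84), those of II (0.02) and III (0.20) lie lower, and that of the import list (-0.29) lies below the dashed line.

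Where a gene had several probes above the floor, they differed by up to 2.33 on the log2 scale. The pairs closer than 0.50, the median of all pairs of the same gene, were Cox6a1 (2.35 and 2.40), Ndufc1 (0.37 and 0.43), Uqcr10 (0.20 and 0.50) and Ndufv3 (1.69 and 2.17). Ndufa3 (0.63 and 1.23) lay farther apart. So did Sdhc (0.19 and 0.71), where 0.71 is a bound and the distance may be larger. In 4 genes the ratios or bounds lay at least 2-fold apart. The probes of Ndufs4 ran from -0.12 to 2.21, a bound from a probe that read 11.0 in epithelium and 206.5 in fibers. Cox6b1 had a second probe below the floor in epithelium and at 291 in fibers, a bound of 2.71 beside 0.97. Ndufc2 had a second probe with a bound of 0.14 beside 1.45, and since a bound is the least the ratio can be, these probes need not differ. Atp5j had probes at 0.67, 0.32 and, as a bound in favour of epithelium, -1.16. The 2-fold differences of Ndufc2 and Ndufa3 therefore each rest on 1 probe of the gene, and the probes of Ndufs4 and of Atp5j have no common direction.

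**Figure D4:**
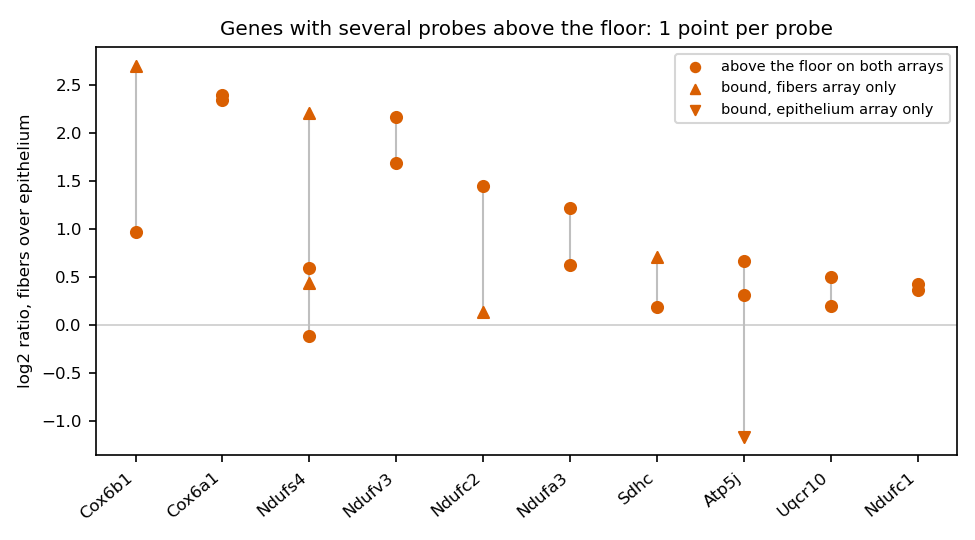
Log2 ratio of fibers over epithelium (y axis) of each probe of the 10 subunit genes with at least 2 probes that have a direction; triangles are bounds. The probes of Cox6a1 agree at 2.35 and 2.40, while those of Ndufs4 and Atp5j lie on both sides of 0.

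Of the 60 subunit genes with a direction, 22 differed by 2-fold or more, and 9 did so under each scaling (values as deposited, scaling to the 90th percentile, lowess and housekeeping scaling) and with a common floor. Higher in fibers were Cox6a1, Cox4i2, Atp5e, Atp5o, Atp5mpl, Ndufv3 and Ndufa13, and higher in epithelium were Uqcrc2 and Uqcrq. With the floor at the 99th percentile of silent probes, Cox4i2 (a log2 bound of 0.86), Atp5o (a bound of 0.95) and Uqcrq (a bound of -0.64) no longer reached 2-fold, and the other 6 did. With housekeeping scaling the 7 genes higher in fibers had log2 ratios from 1.01 for Atp5mpl to 1.51 for Cox6a1. That scaling takes 0.84 from every log2 ratio. It alone set which genes stayed at 2-fold toward fibers, and it could not have removed those higher in epithelium. The other scalings and the common floor removed none of the genes at 2-fold as reported.

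The promoters of respiratory genes are known for binding sites of nuclear respiratory factor 1 (NRF1), GABP (also called NRF2) and YY1. In the RefSeq promoter windows of mouse build GRCm38.p6, from 250 bases before to 50 after the start, 64 of the 79 subunit genes had an entry. On both strands, the NRF1 core GCGCANGCG was found for 19 of these 64 genes (29.7%), against 7.03% of all 27025 genes in the table and 15.4% of 5193 other genes above the floor on at least 1 array. The GABP letters CCGGAAGT were found for 4 genes (6.25%), against 4.31% of all genes and 9.46% of those 5193. The YY1 letters AAGATGGCG were found for 7 (10.9%), against 1.64% and 3.91%. In the subunit genes no match of 1 motif overlapped a match of another, but the NRF1 core can overlap its own reverse complement. Of the subunit genes at 2-fold or more toward fibers, 6 of 16 with an entry held the NRF1 core (37.5%). Of the other measured subunit genes 10 of 36 did (27.8%). The YY1 letters leaned the other way, with 1 of 16 (6.25%) and 6 of 36 (16.7%). The GABP letters were found for 1 of 16 and 1 of 36. Any of these motifs was found for 6 of 16 (37.5%) and 16 of 36 (44.4%). A match is a run of letters and no measured site. The following promoters belong to genes of complexes IV, V, I and III that reached 2-fold toward fibers and hold the NRF1 core. They are shown 5′ to 3′ on the strand of the gene, and capitals mark any of the motifs. They lie at chr5:115348909-115349208 (Cox6a1, minus strand), chr11:115419870-115420169 (Atp5h, minus), chr13:73328433-73328732 (Ndufs6, minus) and chr9:108936398-108936697 (Uqcrc1, plus).
Cox6a1: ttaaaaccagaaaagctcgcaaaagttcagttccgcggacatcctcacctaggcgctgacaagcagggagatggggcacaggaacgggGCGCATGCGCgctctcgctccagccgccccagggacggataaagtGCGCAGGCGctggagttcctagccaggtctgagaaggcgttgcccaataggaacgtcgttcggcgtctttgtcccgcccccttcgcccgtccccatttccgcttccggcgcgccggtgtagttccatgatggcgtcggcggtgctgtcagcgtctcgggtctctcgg
Atp5h: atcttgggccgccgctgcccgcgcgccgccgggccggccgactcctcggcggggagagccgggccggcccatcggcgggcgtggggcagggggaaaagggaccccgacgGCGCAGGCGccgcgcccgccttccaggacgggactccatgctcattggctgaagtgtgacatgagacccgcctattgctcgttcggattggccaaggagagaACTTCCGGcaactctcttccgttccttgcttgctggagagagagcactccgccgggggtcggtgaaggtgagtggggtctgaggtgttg
Ndufs6: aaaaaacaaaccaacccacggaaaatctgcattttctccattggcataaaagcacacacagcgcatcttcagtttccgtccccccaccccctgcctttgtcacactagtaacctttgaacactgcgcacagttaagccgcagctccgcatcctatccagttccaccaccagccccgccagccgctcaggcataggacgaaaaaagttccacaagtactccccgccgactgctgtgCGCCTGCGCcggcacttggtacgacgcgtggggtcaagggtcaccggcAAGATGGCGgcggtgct
Uqcrc1: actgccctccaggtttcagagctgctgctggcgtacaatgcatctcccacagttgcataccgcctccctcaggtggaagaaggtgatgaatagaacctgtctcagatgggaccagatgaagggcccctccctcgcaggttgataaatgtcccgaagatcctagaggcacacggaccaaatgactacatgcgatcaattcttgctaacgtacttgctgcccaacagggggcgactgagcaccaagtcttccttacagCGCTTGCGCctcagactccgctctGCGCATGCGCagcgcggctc
Cox6a1 and Uqcrc1 have 2 separate stretches with the NRF1 core, Atp5h has 1 beside the GABP letters, and Ndufs6 has 1 beside the YY1 letters.

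Of the factors behind these motifs, Nrf1, the gene of nuclear respiratory factor 1, read 101 in epithelium and 29.1, below the floor, in fibers, at least 3.14-fold higher in epithelium. Gabpb1, a GABP subunit, read 76.2 and 73.0 (log2 ratio -0.06), and Gabpa and Yy1 were below the floor on both arrays. The same held for the coactivators Ppargc1a and Ppargc1b, the receptor Esrra and Tfam, which packs mitochondrial DNA. Of 18 regulators of mitochondrial biogenesis, 6 exceeded at least 1 floor, and 2-fold differences numbered 0 toward fibers and 1, Nrf1, toward epithelium. These are 0% and 16.7% of the 6, against 15.5% and 18.5% of all genes. Tfb2m, a transcription factor of mitochondria, read 104 and 52.2 (1.98-fold higher in epithelium), and Ssbp1, which binds single-stranded mitochondrial DNA, read 198.5 and 224.5 (log2 ratio 0.18).

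The citric acid cycle feeds the chain with NADH and succinate. Of 16 genes for it and for pyruvate dehydrogenase on the array, 8 exceeded at least 1 floor, and 5 of these reached 2-fold toward fibers and 0 toward epithelium. That is 62.5% toward fibers, against 15.5% of all genes and 50% of the housekeeping genes (9 of 18). Ogdh, of the oxoglutarate dehydrogenase, read 50.7 and 158 (3.12-fold), and Suclg1, of succinyl-CoA ligase, read 107 and 247 (2.32-fold). Fh1 (fumarase), Mdh2 (malate dehydrogenase) and Idh3b (isocitrate dehydrogenase) were at least 2.52-fold, 2.38-fold and 2.27-fold higher in fibers. The median of the 4 genes on both arrays was 1.0, and 0.16 with housekeeping scaling. The second brightest probes gave 0.18.

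Among electron carriers and accessory factors, 3 of 8 measured genes of 9 reached 2-fold toward fibers. That is 37.5%, against 15.5% of all genes and 50% of the housekeeping genes. Higd2a, which aids complex IV and supercomplexes, was below the floor in epithelium and read 389 in fibers, a bound of 8.72-fold, and its relative Higd1a had a bound of 2.80-fold. Etfb, of the electron transfer flavoprotein, read 385.5 and 1005 (2.61-fold). Cycs, cytochrome c, read 60.5 and 48.3 (log2 ratio -0.33), Atpif1, the inhibitor of the ATP synthase, read 295 and 449 (0.61), and Ndufab1, the acyl carrier protein of complex I that the symbol rule leaves out, read 207 and 244 (0.24).

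Of 44 assembly factors on the array 22 were measured. At 2-fold or more were 3 toward fibers and 3 toward epithelium (13.6% each, near the backgrounds of 15.5% and 18.5%). Of the 7 on both arrays 2 had positive ratios (median -0.25, and 0.05 with lowess). That median leaves out 11 genes above the fibers floor alone and 4 above the epithelium floor alone. With bounds added, and genes without a direction counted as 0, the median was 0.15, so its sign depends on these genes. Coa5 and Cox17, of complex IV assembly, and Ttc19, of complex III, were at least 5.29-fold, 4.42-fold and 2.36-fold higher in fibers. Ndufaf5, of complex I assembly, read 260.5 and 8.06, at least 8.11-fold higher in epithelium, Cox16 at least 2.14-fold, and Atpaf2, of ATP synthase assembly, read 2134 and 1036 (2.06-fold higher in epithelium).

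Genes for protein import, chaperones and the outer membrane of mitochondria numbered 13 measured of 18. For 4 of these, Tomm7, Timm23, Timm50 and Opa1, no direction could be given, and none of the other 9 differed by 2-fold. The median of these 9, all on both arrays, was -0.29, and 2 were positive. It was -0.067 with lowess and -1.13 with housekeeping scaling, and turned to 0.91 with the second brightest probes. With the 4 genes without a direction counted as 0, the median as reported was -0.04. Vdac1, the main outer membrane channel, read 2078 and 1612 (log2 ratio -0.37), Vdac2 and Vdac3, its relatives, had -0.84 and -0.41, and Hspd1 and Hspe1, the chaperonin pair, had -0.43 and -0.29. Hspa9, the matrix Hsp70, read 88.2 and 161 (0.87) and Immt, which shapes the cristae, 0.28.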

How the data were processed

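The values the authors deposited are linear intensities, whole numbers from -16 upward, so a background had been subtracted; the sources used here do not give the method or any scaling between arrays. Per the labels' protocols, RNA was biotin-labelled and hybridised to Illumina arrays. From these values the arrays were quantile normalized (Python 3.11.15, numpy 2.4.6, pandas 2.3.3), probes were named by the platform annotation (34885 of 45281 had 1 symbol) and the brightest probe stood for its gene. Medians are over genes above the floor on both arrays unless stated otherwise. Counts at 2-fold take ratios and bounds. The steps were checked on simulated data with known ratios. Genes given with full values are those at 2-fold or more, the brightest others of each complex, those whose probes disagree, and in the other lists up to 4 with the largest ratios and any at 2-fold against the list median; a few others were named for their role after their values were seen. Alternatives were other scalings, floors, probe choices, a 1.5-fold limit and listed subunits only. Members and lists were chosen with earlier results of these data known. The number of arrays limits the precision, and each tissue's batch cannot be told apart from the tissue. No RefSeq protein table was used here.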

Additional observations from a re-analysis of the deposited data

How the results depend on the processing

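Of the 60 subunit genes with a direction, 33 kept their sign under each scaling and with a common floor. The 22 at 2-fold or more all did, which housekeeping scaling, a shift by less than 2-fold, could not have changed. Moves were set against 0.74, the SD between probes of the same gene on the log2 scale. With values as deposited, 90th percentile scaling, lowess and a common floor, 0 of the subunit genes with a value moved by that much. Housekeeping scaling moved all 51 that still had a direction, by construction: 7 subunit genes were then 2-fold higher in fibers and 5 in epithelium, and medians were -0.17 for all complexes, 0.11 for complex I, -0.82 for II, -0.64 for III, -0.45 for IV, -0.081 for V, -1.09 for assembly factors, -0.42 for carriers, -0.90 for regulators, 0.16 for the citric acid cycle, -1.13 for import and -0.0084 for housekeeping genes. Of all genes, 4.53% were 2-fold higher in fibers and 42.8% in epithelium with housekeeping scaling. With the floor at the 99th percentile of silent probes, 9 subunit genes were 2-fold higher in fibers and 1 in epithelium, of 48 measured. The shares of all genes were 11.0% and 14.9%, and 9 of 41 subunit genes moved. With the second brightest probe, only 13 subunit genes were measured. Of these, 4 were higher in fibers and 0 in epithelium, against 13.6% and 15.5% of all genes. Medians were then 2.40 for complex IV (Cox6a1 alone), 0.18 for the citric acid cycle and 0.91 for import. With the mean of all probes 4 of 55 moved, and with no floor 1 of 60. At 1.5-fold, 32 were higher in fibers (51.6%, against 24.6% of all genes). No paired analysis was possible because each tissue has 1 array.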

Other observations

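Subunits that sit side by side in the same complex did not always have like ratios. The following pairs were chosen after their values were seen, so the shares of probe pairs given beside them describe distance and are no test. Scaling the arrays by 1 factor leaves the difference between the log2 ratios of a pair as it is, but lowess, which depends on intensity, moves it. Atp5b and Atp5a1, the beta and alpha subunits that alternate in the F1 head, differed by 1.97 on the log2 scale. Of the 690 pairs of probes of the same gene, 8.12% lay that far apart or farther. Uqcrc1 and Uqcrc2, the core proteins of complex III, differed by at least 3.07, a distance reached by 1.30% of the probe pairs. Atp5e and Atp5d, of the foot of the central stalk, differed by 2.03 (7.54% of the probe pairs), and Cox5a and Cox5b by at least 1.91 (8.99%). With lowess the differences of these 4 pairs were 1.90, at least 3.38, 1.67 and at least 2.07 in that order. Other partners lay close: Ndufv2 and Ndufv1, which sit together at the tip of the peripheral arm, differed by 0.10 (-0.14 with lowess), and the anchors Sdhc and Sdhd by 0.33 (0.25 with lowess). Apart from Cox5b, whose second probe in fibers gave no direction, the genes of these pairs that lay far apart had 1 probe above the floor each. Whether the probes or the transcripts differ was not tested.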
